A study of Homo sapiens with 4 samples.

Results

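The DNA loops described here are the long-range ones, those with more than 200 kb between the midpoints of their 2 anchors, in the POLR2A HiChIP-seq loop lists of HepG2 cells. They were chosen by distance alone. The list of mock-treated cells held 3770 of them among 66417 loops, and the list of cells treated with pyridostatin (PDS) held 1126 among 18778. The lists had 152 long loops in common, so 4744 different long loops were described. HepG2 is an established human hepatocellular carcinoma line, and all 4 libraries (2 replicates per condition) came from it with an antibody against POLR2A, the largest subunit of RNA polymerase II (RNAPII). Mock-treated cells received sterilized water, and PDS-treated cells received 20 µM PDS, a small molecule that binds G-quadruplex (G4) DNA, for 24 h before fixation with formaldehyde. Nuclear DNA was cut with MboI and ligated, RNAPII-bound chromatin was pulled down, so that a paired-end tag (PET) reports 2 fragments that lay close together in the nucleus. The replicates of each condition were combined by the authors into 1 list, so there is no spread between replicates and no test between conditions, and the 95% intervals below cover counting error only.

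Contacts over such distances are formed in several known ways. Cohesin extrudes loops that often stop where CTCF, an architectural zinc finger protein, is bound to motifs that point toward each other, and enhancers can reach promoters inside the domains that result. RNAPII is loaded at promoters and at many enhancers, so a HiChIP-seq experiment with POLR2A reports pairs of active elements most often, although other contacts that carry RNAPII can be captured too.

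The sequences shown first are those on which the reading of the strongest long loops turns. The strongest mock loop whose anchors had little sequence in common joined chr14:35139401-35148154, inside PRORP, to chr14:35412615-35423373, 7866 bp from a start site of NFKBIA. Each anchor held 1 match to the 12-base core of the CTCF motif, and the matches pointed toward each other. They are shown 5′ to 3′ with the 12 core bases in capitals, on the strand that carries the motif, from GRCh38.
PRORP anchor, chr14:35140889-35140928, plus strand: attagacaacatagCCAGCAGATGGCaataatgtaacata
NFKBIA-side anchor, chr14:35422554-35422593, minus strand: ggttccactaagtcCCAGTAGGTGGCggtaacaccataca
The long loops with most PETs had anchors of another kind, which carried near copies of the same DNA. The first 60 bases of the longest identical run between the anchors are shown for the top loop of the mock list (a run of 359 bases) and of the PDS list (a run of 174 bases), each of them present in both anchors.
Chromosome 2, chr2:90286820-90286879 plus strand and chr2:91529826-91529885 minus strand: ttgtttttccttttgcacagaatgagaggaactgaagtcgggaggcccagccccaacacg
Chromosome 17, chr17:25115196-25115255 and chr17:26603741-26603800, both plus strand: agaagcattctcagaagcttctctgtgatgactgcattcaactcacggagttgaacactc
A stretch of 100 bases outside annotated exons shows the same for a loop between the paralogues ARHGAP11B and ARHGAP11A, with the 2 differing bases in capitals.
ARHGAP11B anchor, chr15:30624903-30625002, plus strand: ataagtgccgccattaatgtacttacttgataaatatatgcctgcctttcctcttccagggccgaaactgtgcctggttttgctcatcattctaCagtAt
ARHGAP11A anchor, chr15:32614289-32614388, plus strand: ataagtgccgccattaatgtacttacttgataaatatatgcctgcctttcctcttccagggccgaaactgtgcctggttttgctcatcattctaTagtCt

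Long loops were a small part of either list. They made up 5.68% of mock loops (95% Wilson interval 5.50 to 5.85%) and 5.996% of PDS loops (5.67 to 6.35%), and held 12810 and 3805 PETs. The number of long loops was lower after PDS treatment, with a PDS/mock ratio of 0.299 (0.279 to 0.319), and the ratio of their PETs was 0.297 (0.286 to 0.308). Loops of 100 to 200 kb had a lower ratio, 0.245 (0.229 to 0.261, 4736 and 1158 loops), and loops up to 100 kb had 0.285 (0.280 to 0.290). Most long loops were at the lowest count that was listed: 2950 mock loops and 897 PDS loops had 3 PETs. A loop missing from a list can therefore have had up to 2 PETs in it. At least 5 PETs were counted in 263 long mock loops and 60 long PDS loops, and the highest counts were 43 and 29. Counts were not scaled for sequencing depth, so a ratio of numbers holds depth and treatment together, and their parts cannot be told apart.

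Among the long loops the ratio was higher beyond 500 kb than below. At 200 to 300 kb the lists held 1702 and 455 loops, a ratio of 0.267 (0.241 to 0.296), and at 300 to 500 kb they held 1218 and 318, a ratio of 0.261 (0.231 to 0.295). At 500 to 1000 kb there were 601 and 238 loops, a ratio of 0.396 (0.341 to 0.460), and beyond 1000 kb 249 and 115, a ratio of 0.462 (0.370 to 0.576). The loops beyond 500 kb were thus reduced less in number than those below it, by more than the counting error. The median distance was 318 kb in the mock list (311 to 323 kb) and 343 kb in the PDS list (332 to 361 kb), and the longest loops spanned 1998 and 1993 kb. At the 200 kb limit itself, the first mock loop inside was 200024 bp long with 3 PETs and the last outside was 199939.5 bp with 3 PETs. In the PDS list, these were 200048.5 bp with 4 PETs and 199780.5 bp with 4 PETs.

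**Figure D1:**
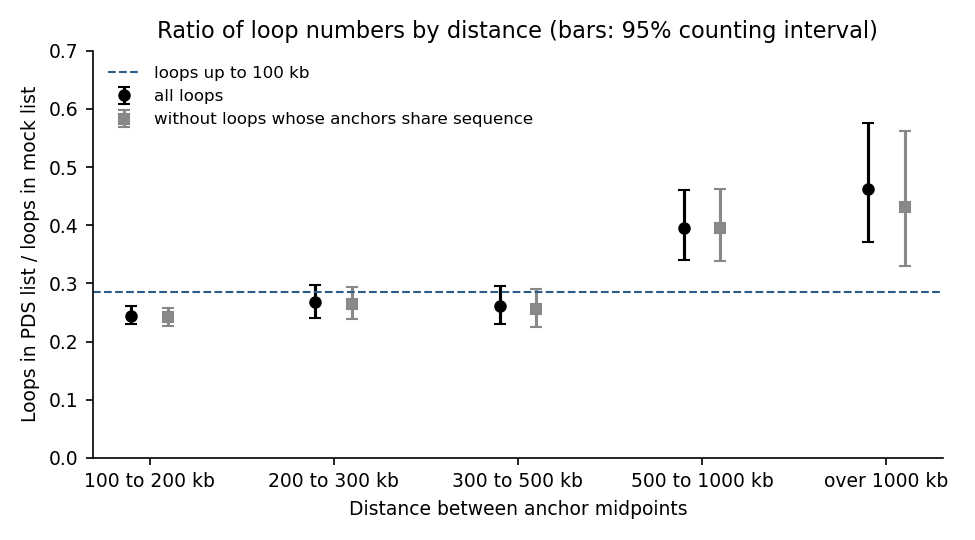
The number of PDS loops divided by the number of mock loops (y axis) in 5 classes of distance between anchor midpoints (x axis), for all loops (black circles) and without loops whose anchors share sequence (grey squares), with 95% counting intervals as bars and the value of loops up to 100 kb as a dashed line. The ratio was 0.267 and 0.261 in the classes of 200 to 500 kb and 0.396 and 0.462 in the longer ones, and leaving out the sequence-sharing loops gave 0.431 beyond 1000 kb.

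The anchors of some long loops shared much of their sequence, and these loops made up most of those with at least 7 PETs: 50 of 69 in the mock list and 16 of 19 in the PDS list. A loop is called sequence-sharing here when the anchors had in common at least 10% of the 31-base sequences of the anchor that had fewer of them, on either strand. By this rule, 162 mock loops (4.30%) and 78 PDS loops (6.93%) were sequence-sharing, with a median of 45.2% and 47.6% in common. Near this limit, 3 mock loops and 3 PDS loops had between 5 and 10% in common, and 11 and 3 had between 10 and 15%. Loops below it are called distinct-anchor loops, which does not mean that nothing was shared: 49.8% of those in the mock list had at least 1 such sequence at both anchors. At least 5 PETs were counted in 80 of the 162 (49.4%) and in 183 of the 3608 other long mock loops (5.07%), so that most loops at this count were not sequence-sharing. Of the 22 long mock loops with at least 10 PETs, 21 were sequence-sharing, the exception being the loop from PRORP to the NFKBIA side, with 14 PETs, whose anchors had 0.321% in common and a longest identical run of 35 bases. All 8 long PDS loops with at least 10 PETs were sequence-sharing. Reads from near copies can be placed on the wrong copy or discarded, and how the authors' processing treated such reads at these anchors was not tested.

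**Figure D2:**
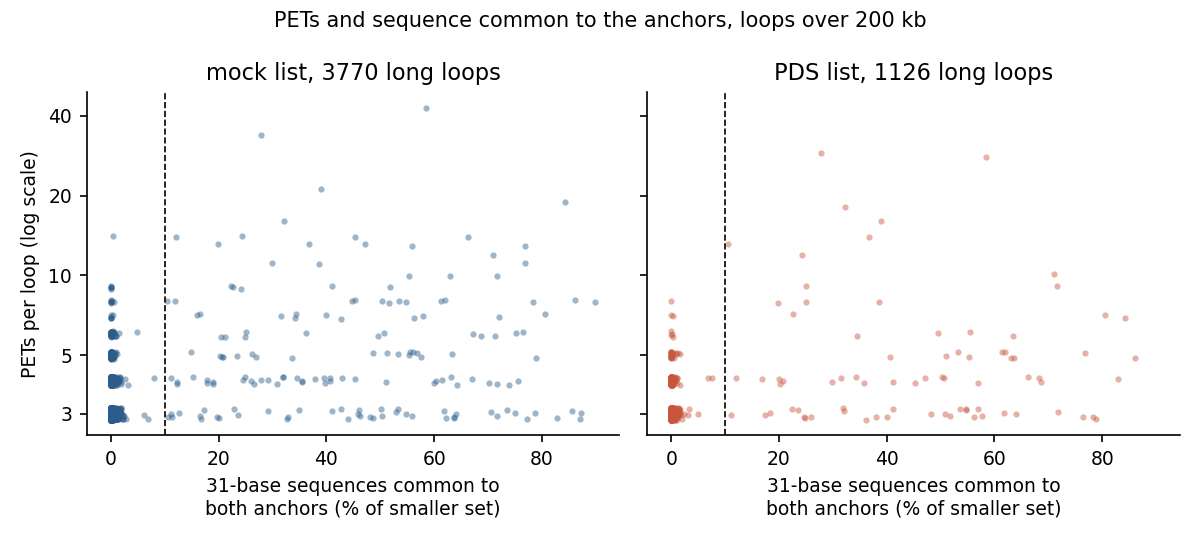
PETs per long loop (y axis, log scale) against the percentage of 31-base sequences common to both anchors (x axis), for the 3770 mock loops and the 1126 PDS loops, with 1 point per loop, a little vertical scatter to separate points and a dashed line at 10%. Above 10 PETs, all points but 1 in the mock panel lie to the right of the line, and the exception is the loop of 14 PETs between PRORP and the NFKBIA side.

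The named strongest loops show where this DNA lies. The loop with most mock PETs, between chr2:90286657 and chr2:91496695 (starts of the anchors), spanned 1219.9 kb with 43 PETs in mock-treated cells and 28 after PDS treatment. No protein-coding start site lay near it: the nearest, of RPIA (ribose 5-phosphate isomerase), was 1594984 bp away. The top PDS loop spanned 1488 kb on chromosome 17, with 34 mock PETs and 29 PDS PETs, and its anchors were 2177250 and 688028 bp from WSB1, a ubiquitin ligase subunit. A second chromosome 17 loop, 530 kb long, had 21 and 16 PETs. On chromosome 20, a loop of 438 kb had 16 mock PETs and 18 PDS PETs, with DEFB115, a beta-defensin gene, as the nearest gene, 1736591 bp from its closer anchor. These loops lie in or near centromeres, in regions with few genes, and their distances are only those of the assembly. Between their anchors the assembly had runs of unknown bases, 1000000 of them in the chromosome 2 loop. Of the 162 sequence-sharing mock loops, 60 spanned such a gap, against 47 of the 3608 others.

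Other sequence-sharing loops joined gene copies in segmental duplications. ARHGAP11B, a human-specific partial copy, and its parent gene ARHGAP11A were joined by a loop of 1989 kb with promoters at both anchors. Its PETs numbered 14 in the mock list and 4 in the PDS list. FAM86B1 and FAM86B2, members of a methyltransferase family, had 19 and 7 PETs over 243 kb. POTEF and POTEE, actin-containing paralogues, had 11 and 5 PETs over 1082 kb. From the side of OTOA (otoancorin, an inner ear protein) to that of NPIPB5 on chromosome 16, the strongest loop had 13 mock PETs over 816.8 kb and was not in the PDS list, while a neighbouring loop of 817.2 kb had 12 and 10 PETs. Copies of NPIPA genes on the same chromosome were flanked by a loop of 1590 kb (NPIPA7 and NPIPA8 nearest) with 11 and 8 PETs. The lysozyme-like genes LYZL1 and LYZL2 lay at a loop of 1286 kb with 14 mock PETs that was not in the PDS list, and likewise ERV3-1 and VKORC1L1 (13 mock PETs, 691 kb). MUC20 and TNK2 flanked a loop of 14 and 4 PETs, and MAP2K3 and KCNJ18 one of 13 and 4. ZNF705G and ZNF705B, zinc finger gene copies, were nearest to a loop of 515 kb with 10 and 9 PETs. Over all sequence-sharing loops the PDS/mock ratio of numbers was 0.481 (0.368 to 0.630), above the 0.290 (0.271 to 0.311) of the other long loops. A copy number or a depth per copy was not measured here.

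Long loops were listed for both conditions about as often as loops of 100 to 200 kb in the mock list, and less often than loops of all lengths. Of all mock loops 11% were in the PDS list, and of all PDS loops 39.1% were in the mock list (the background for these counts). Among long loops these shares were 4.03% (152 of 3770, 3.45 to 4.71%) and 13.5% (11.6 to 15.6%), and among loops of 100 to 200 kb 4.39% (3.84 to 5.01%) and 18.0% (15.9 to 20.3%). With 3 PETs, 1.80% of long mock loops were in the PDS list (1.38 to 2.34%), compared with 2.44% at 100 to 200 kb (1.98 to 2.99%) and 6.30% of all loops up to 200 kb (6.06 to 6.56%). Sequence-sharing and other loops stood far apart: 64 of 162 sequence-sharing mock loops were in both lists (39.5%, 32.3 to 47.2%), against 88 of 3608 others (2.44%, 1.98 to 3.00%). Seen from the PDS list, the shares were 82.1% and 8.40%. Beyond 1000 kb, 31 loops were in both lists, and 30 of them were sequence-sharing. The remaining one, of 1272 kb with 3 and 4 PETs, lay at chr20:29054341 to chr20:30344003, in the same gene-poor region as the sequence-sharing loops of chromosome 20. A count of 5 PETs or more in each list was reached by 25 long loops, and all 25 were sequence-sharing. With at least 5 mock PETs, 20 of 183 other long loops were also listed after PDS treatment (10.9%, 7.19 to 16.3%), compared with 18.1% at 100 to 200 kb (14.6 to 22.3%) and 26.9% of all loops up to 200 kb (26.1 to 27.7%).

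Among the 88 shared distinct-anchor long loops, 38 had fewer PETs after PDS treatment, 32 had the same number and 18 had more, and 8 were lower by at least 2-fold. Over all 7333 shared loops, 17% were lower by at least 2-fold. The PETs of the 88 summed to 347 and 299. Of the 88, 44 had 3 mock PETs and so could not be lower in a list that starts at 3. These 88 loops lay on 14 chromosomes, with 24 on chromosome 14 and 20 on chromosome 20. Of the 3520 other long mock loops that were not in the PDS list, 26.1% had both anchors in use in other PDS loops (24.6 to 27.5%), 39.7% had 1 and 34.2% had none. Both anchors were in use for 28.5% of such mock loops of 100 to 200 kb (27.2 to 29.9%), and for 13.6% of all those up to 200 kb (13.3 to 13.9%).

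The loop inside PRORP, a protein subunit of mitochondrial RNase P, to the NFKBIA side was the strongest distinct-anchor long loop. NFKBIA encodes the inhibitor that holds NF-κB in the cytoplasm. The loop spanned 274 kb and had 14 mock PETs, while it was missing from the PDS list, and its CTCF motif matches are the convergent pair shown above. From the same PRORP anchor, a loop of 261 kb reached the anchor that holds the NFKBIA promoter, at chr14:35401859-35408052, with 8 mock PETs and 3 PDS PETs. A second PRORP anchor, chr14:35210336-35242805, had 6 long loops in the PDS list, more than any other anchor of distinct-anchor loops there.

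The genes around FOXA1 had the densest set of long loops. FOXA1 is a pioneer transcription factor that opens chromatin at liver enhancers, and it lies between MIPOL1 and TTC6, genes of little known function. The window from 37 to 38 Mb of chromosome 14 held the midpoints of 42 mock and 24 PDS distinct-anchor long loops, the highest numbers of any 1-Mb window in either list. From inside MIPOL1 (chr14:37242057-37252830) to inside TTC6 (chr14:37863515-37880870), a loop of 625 kb had 9 mock PETs and 3 PDS PETs. From an anchor with a TTC6 promoter, chr14:37605518, a loop of 254 kb to the same far anchor had 9 and 4 PETs. The anchor with the FOXA1 promoter had 2 long loops, of 3 and 6 mock PETs, and none in the PDS list. A loop from MIPOL1 to another part of TTC6, 465 kb long, had 3 mock PETs and 5 PDS PETs. MIPOL1 had 17 long loops at its promoters in the mock list (56 PETs) and 6 in the PDS list (19 PETs), the most of any gene in both, although none of them was the same loop. It also had 78 mock loops and 41 PDS loops of any length there. TTC6 had 9 (37 PETs) and 5 (16 PETs), with 1 loop in both. Most of the promoter anchors of MIPOL1 and TTC6 in these loops lay inside the gene, at start sites of other transcripts. No PDS long loop used an anchor at the start of either gene (chr14:37197894 for MIPOL1 and chr14:37595629 for TTC6). On this chromosome the PDS/mock ratio of long loops was 0.378 (0.310 to 0.461), with 357 and 135 loops.

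**Figure D3:**
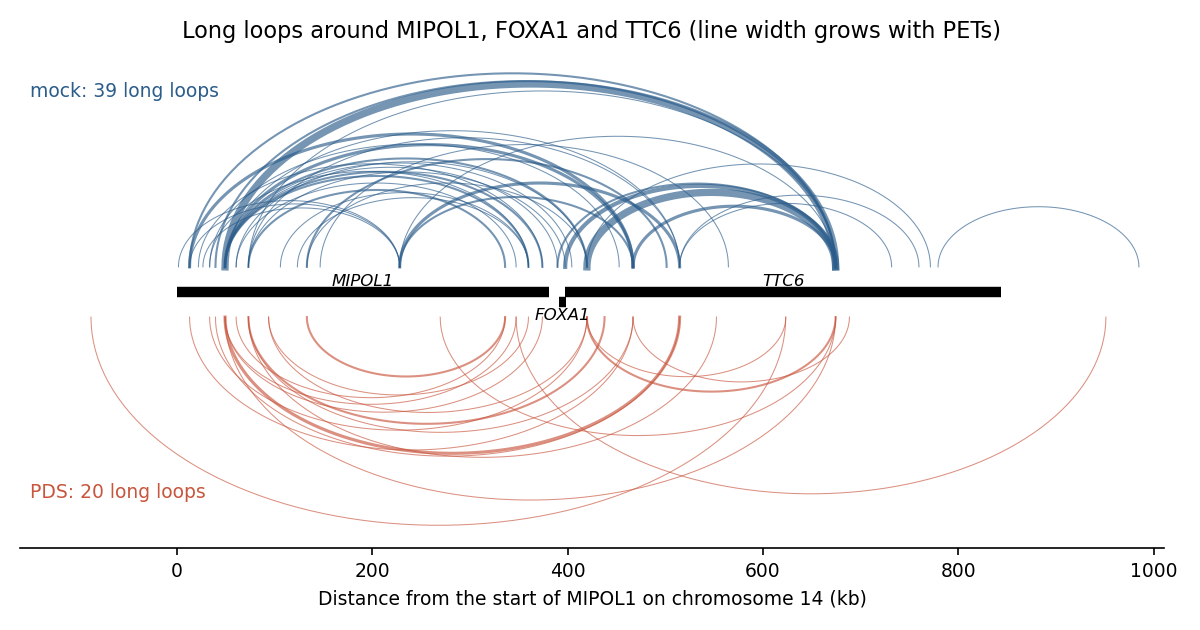
Distinct-anchor long loops around MIPOL1, FOXA1 and TTC6, drawn as arcs between anchor midpoints against the distance from the start of MIPOL1 in kb (x axis), mock above and PDS below, with line width growing with PETs and gene bodies as black bars. Mock-treated cells have 39 long loops in the window and PDS-treated cells 20, and the widest mock arcs end inside TTC6.

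CEBPB, a bZIP transcription factor of the acute-phase response in liver, had the long-loop anchor with most partners in the mock list. Its promoter anchor, chr20:50185026-50203796, had 11 long loops with 41 PETs in the mock list and 4 with 13 PETs in the PDS list. All 11 ran in 1 direction, to anchors around or inside PTPN1, which encodes a phosphatase of the insulin receptor, and the longest into RIPOR3, over 216 to 412 kb. The strongest, of 279 kb, had 7 mock PETs and 3 PDS PETs. The others in both lists had 4 and 4 PETs (216 kb), 4 and 3 (271 kb) and 3 and 3 (370 kb). All 4 PDS loops were thus mock loops too, and the other 7 mock loops had 3 or 4 PETs. An anchor at the far end of the same chromosome held the promoters of 4 genes: PTK6 and SRMS, cytoplasmic tyrosine kinases, HELZ2, a nuclear helicase, and FNDC11. It had 9 long loops with 41 PETs in the mock list and 3 with 12 PETs in the PDS list. The strongest reached DNAJC5 and TPD52L2 at 326 kb with 8 mock PETs, and was missing after PDS treatment. The 3 loops in both lists went to ZBTB46, a zinc finger repressor, at 241 kb (6 mock PETs and 3 PDS PETs), to another DNAJC5 anchor at 357 kb (3 and 5) and to TCEA2, a transcription elongation factor (4 and 4).

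**Figure D4:**
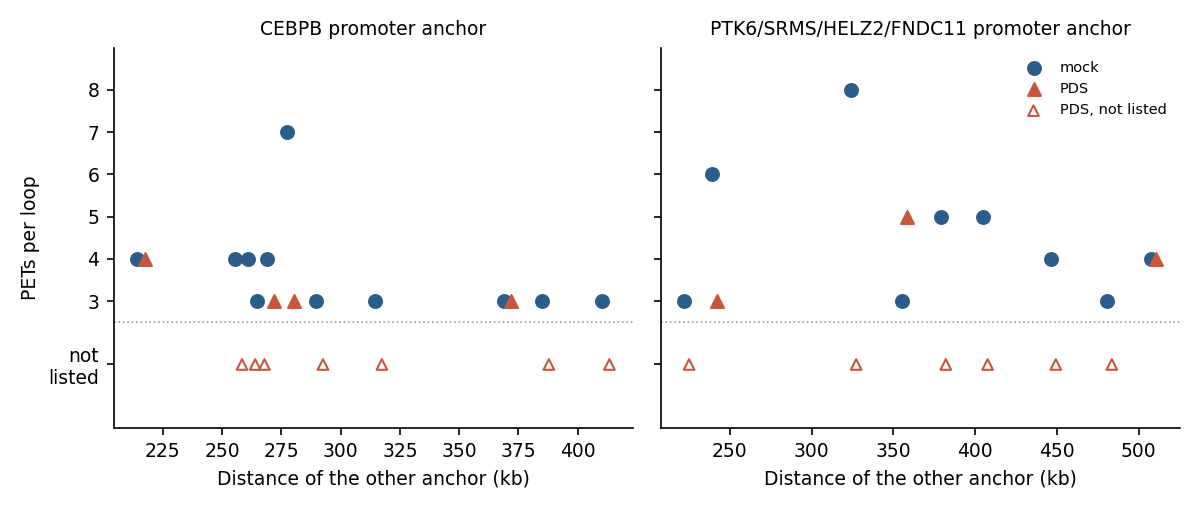
PETs per long loop (y axis) at the CEBPB promoter anchor (left) and at the anchor with the promoters of PTK6, SRMS, HELZ2 and FNDC11 (right), against the distance of the other anchor in kb (x axis), with mock as filled circles, PDS as filled triangles drawn slightly to the right, and loops missing from the PDS list as open triangles. CEBPB had 11 mock loops of which 4 are also listed for PDS-treated cells, and the other anchor had 9 and 3.

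The remaining genes with many long loops had few of the same loops in both lists: none for TMEM114 and CEP112, and 1 each for BCAS3, EPAS1, FTO and AXIN2. TMEM114 (a claudin-like membrane protein) had 8 long loops with 27 PETs in the mock list and 0 in the PDS list. BCAS3, a cytoskeletal regulator, had 9 (35 PETs) and 1 (3 PETs), and CEP112, a centrosomal protein, had 8 (28 PETs) and 2 (6 PETs). For TMEM114, BCAS3 and CEP112 the anchors so counted lay inside the gene or at its far end. They held start sites of other transcripts, not the outermost start of the gene. Most of the BCAS3 loops had both anchors inside BCAS3. EPAS1, which encodes the hypoxia factor HIF-2α, had 7 (23 PETs) and 3 (10 PETs). The strongest EPAS1 loop had 5 mock PETs and 4 PDS PETs over 300.2 kb. It joined an anchor with a start site of PRKCE, a protein kinase C, to chr2:46356257-46390746. That anchor holds the far end of EPAS1 (chr2:46293667-46386697, plus strand). It counts as a promoter only by a start site of another transcript. FTO, an RNA demethylase, had 6 (19 PETs) and 3 (12 PETs). A PDS loop of 339 kb with 4 PETs joined an anchor inside FTO to the promoter of IRX3, a homeobox gene. No mock loop was listed between these anchors. From the same FTO anchor, a mock loop of 325 kb with 3 PETs ended 6172 bp from an IRX3 start site. AXIN2, a negative regulator of Wnt signalling, had 2 (6 PETs) and 3 (10 PETs), the only gene of those named by this count with more in the PDS list. In all, 1769 protein-coding genes had a long loop at a promoter in the mock list (8.84% of 20020) and 542 in the PDS list (2.71%), and 218 had one in both. Only 33 mock genes and 2 PDS genes had at least 5. Neighbouring genes can share an anchor, as with PTK6 and SRMS, so these genes are not independent. Some anchors with many long loops were wide: 51365 bp at PTK6, 30284 bp at MIPOL1 and 18771 bp at CEBPB. The median over the anchors of long mock loops was 8640 bp. The part of anchor width in these numbers was not tested.

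Hepatocyte transcription factors were among the genes at long loops, with 7 of 24 in the mock list and 3 of 24 in the PDS list, beside 8.84% and 2.71% of all genes. A loop of any length was listed for 21 and 10 of the 24, beside 59.9% and 28.7% of all genes. CEBPB had 11 of the 18 long mock loops of these factors. Apart from CEBPB and FOXA1, each factor had 1 long mock loop at most. HNF4A, the nuclear receptor that sets hepatocyte identity, was joined to PABPC1L over 588 kb with 4 mock PETs. ONECUT1 had a loop of 669 kb with 4 mock PETs, and GATA6 and NR2F1 had 1 each with 3. FOXA2 had 1 loop in each list, of 3 PETs and to different anchors, and PPARA, the fatty acid sensor, had 1 only in the PDS list. Of 32 plasma protein genes, ALB (albumin) and APOH had a long loop with 3 mock PETs each (6.25%), and none had one in the PDS list, shares near those of all genes. Of 22 genes of metabolism and conjugation, GLUL, glutamine synthetase, had 5 mock PETs over 248 kb and ABCB11, the bile salt export pump, had 3 over 579 kb, while CPS1, the entry enzyme of the urea cycle, had 3 PDS PETs over 443 kb. All of these but CEBPB, FOXA1 and GLUL rested on 3 or 4 PETs, a count at which absence from the other list was not detectable as a difference.

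HOX genes, the clustered regulators of body axis patterning, had long loops at 12 of 39 promoters in the mock list (30.8%) and 3 of 39 in the PDS list (7.69%). A loop of any length was listed for 28 and 15 of the 39. The lists in this paragraph stand beside the same 8.84% and 2.71% of all genes. Because anchors span several of these genes, the 12 shared few loops. HOXD10 and HOXD11 had an anchor with loops of 512 kb (3 PETs) and 627 kb (5 PETs), and HOXD3, HOXD8 and HOXD9 another with loops of 324 kb (3 PETs) and 511 kb (4 PETs). All 4 ended where MTX2, a mitochondrial import gene, had the nearest start site, 184996 to 463566 bp away, and none was in the PDS list. The anchor of HOXA9, HOXA10 and HOXA11 had 1 loop of 3 PETs in each list, to HIBADH in mock-treated cells and to TAX1BP1 after PDS treatment. None of the 53 clustered protocadherin genes had a long loop, and only 14 of them had a mock loop of any length. Histone genes had 3 of 74 in the mock list, on 1 anchor with H3C12, and 0 in the PDS list. Of 16 genes for cohesin and loop architecture, STAG1, a cohesin subunit, had 1 long mock loop with 3 PETs. Of 14 immediate early genes, JUN and FOSB each had 1 mock loop and FOSL2 1 PDS loop, all with 3 PETs. Zinc finger genes had 28 of 509 in the mock list (5.50%) and 7 of 509 in the PDS list (1.38%). Both shares were below those of all genes, but only 226 and 94 of the 509 had a loop of any length. ZNF217, a corepressor component, led with 5 mock loops (19 PETs) and 1 PDS loop (3 PETs) toward BCAS1. Of the 8 hepatocyte markers, 7 had loops of some length in the mock list and 8 in the PDS list. For 8 markers of other cell types the numbers were 6 and 2, and of all genes 59.9% and 28.7% had such a loop. SNAP25, a neuronal gene, had a long mock loop with 3 PETs.

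Other distinct-anchor long mock loops with high counts were missing from the PDS list. Loops of 9 mock PETs joined regions between OLIG3 and TNFAIP3 (which encodes the NF-κB inhibitor A20) over 296 kb, and between CCN2, a matricellular growth factor, and MOXD1 over 284 kb. CBFA2T3, a transcriptional corepressor, and ACSF3, a mitochondrial acyl-CoA synthetase, were joined by promoters at both ends over 249 kb with 9 mock PETs, and a second loop of 204 kb between these genes had 7 mock PETs and 4 PDS PETs. Loops of 8 mock PETs joined VPS35L, an endosomal recycling subunit, to GPRC5B over 287 kb, and NEDD9, a focal adhesion scaffold, to a site toward TMEM170B over 231 kb. SAMM50, of the mitochondrial outer membrane, and NUP50, of the nuclear pore, were joined over 1173 kb with 7. These genes and those in the next paragraph were chosen for their counts after the values had been seen.

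Some long loops were listed only after PDS treatment with counts above the minimum. The strongest joined a region 164189 bp from FOXN2, a forkhead gene, to the promoter of PPP1R21, an endosomal protein, over 351 kb with 8 PDS PETs. Between TBX3, a T-box developmental regulator, and MED13L, a Mediator kinase module subunit, a loop of 677 kb had 7. Loops of 6 PETs joined CCDC85C and EVL, an actin regulator (427 kb), NEB and CACNB4 (400 kb), FAM117B and NBEAL1 (362 kb), and DHRS2 and DHRS4, dehydrogenases (207 kb). At SOX9, known for distant enhancers, a loop of 697 kb ended 39297 bp from the gene with 5 PDS PETs. RBFOX3 had a loop of 219 kb in both lists, with 3 mock PETs and 7 PDS PETs. In all, 960 of 1048 distinct-anchor long PDS loops were missing from the mock list (91.6%), against 60.9% of all PDS loops. With at least 5 PETs, 24 of 30 were missing from it (80%), against 29.3% of all PDS loops at that count.

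The longest loops came close to 2000 kb. In the mock list they were a loop of 1998 kb between the sides of APOD and RUBCN, loops of 1989.5 and 1988.8 kb at ARHGAP11B and ARHGAP11A, one of 1989.2 kb from the side of OR4E1 to that of DHRS4, and one of 1986 kb from GKAP1 to the side of AGTPBP1. All but the OR4E1 loop were sequence-sharing. In the PDS list the longest joined the side of CLINT1 to ADRA1B, an adrenergic receptor gene, over 1993 kb with 3 PETs, followed by the ARHGAP11 loop of 1988.8 kb, the GKAP1 loop with 7 mock PETs and 3 PDS PETs, a loop between the sides of MUC20 and BDH1 and one between the sides of OSMR and PRKAA1 (1972.4 kb, 3 PETs). Neither list held a loop beyond 2 Mb, and the sources used here do not say whether a limit was set.

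By chromosome, long loops followed the number of loops of any length only in part. They made up 7.94% of mock loops on chromosome 14 (7.18 to 8.76%), 6.64% on chromosome 20, 6.41% on chromosome 2 and 6.09% on chromosome 6, against 4.08% on chromosome 19 (3.22 to 5.14%), with a median of 5.10% over 22 autosomes. Chromosome 2 had the most, 710 in the mock list and 198 in the PDS list, followed in the mock list by chromosomes 6 (382 and 115), 20 (381 and 146) and 14 (357 and 135). Together with chromosomes 16 (263 and 74) and 17 (219 and 73), these held 61.3% of long mock loops (59.8 to 62.9%) and 65.8% of long PDS loops (63.0 to 68.5%), compared with 54.8% and 62.0% of loops up to 200 kb. All 22 autosomes had fewer long loops in the PDS list, with ratios from 0.152 on chromosome 18 (46 and 7 loops) to 0.383 on chromosome 20. Chromosome X had 4 and 0. The copy number of each chromosome in these cells was not measured here, and its part in these numbers was not tested.

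**Figure D5:**
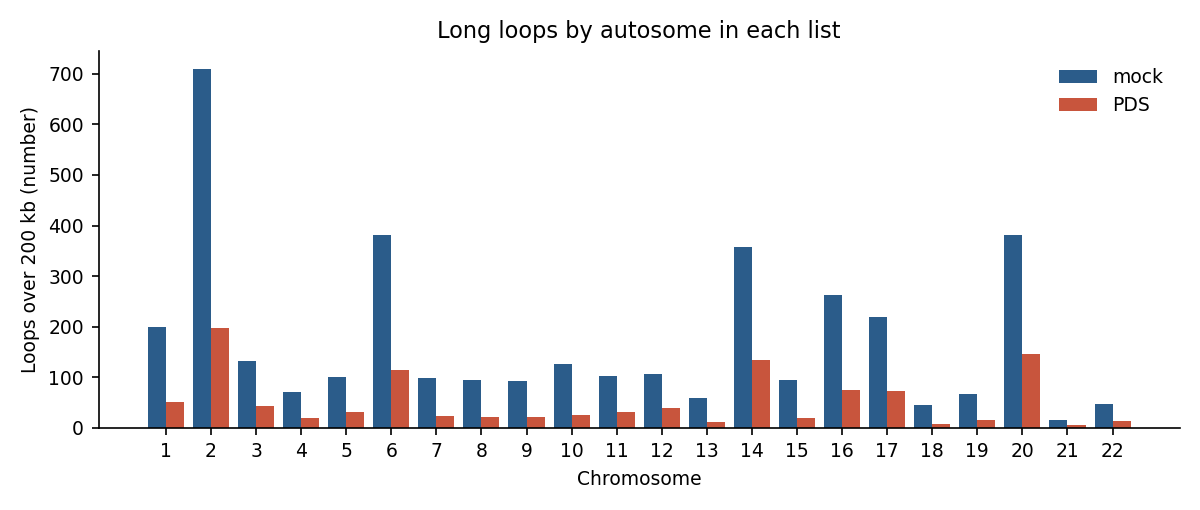
Number of loops over 200 kb (y axis, from 0) on each autosome (x axis) in the mock list and the PDS list. Chromosome 2 is highest with 710 and 198, and every autosome has fewer long loops in the PDS list.

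The share of long loops with a promoter was lower in the PDS list, and in both lists it was lower beyond 1000 kb than at 100 to 200 kb. An anchor was called a promoter anchor when a start site of any transcript of a protein-coding gene lay within 1 kb. Such a start site can lie inside the gene or at its far end, as at FTO, EPAS1, BCAS3 and MIPOL1, and need not be its main one. At least 1 promoter anchor was present in 45.5% of long mock loops (43.9 to 47.1%) and 38.7% of long PDS loops (35.9 to 41.6%). Loops up to 100 kb had shares of 45.5% and 41.2%, close to those of long loops. At 100 to 200 kb the shares were 52.7% and 45.8%, at 200 to 300 kb 49.8% and 47.7%, and beyond 1000 kb 35.3% and 28.7%. The PDS share was thus not lower at 200 to 300 kb than at 100 to 200 kb. Sequence-sharing loops had few promoters (20.4% of mock and 15.4% of PDS loops), and without them the shares over 200 kb were 46.6% and 40.5%. Promoters lay at both ends of 10.1% of long mock loops (9.13 to 11.1%) and 8.79% of long PDS loops (7.28 to 10.6%). Both anchors lay in the same gene in 6.15% of long mock loops, against 16.7% at 100 to 200 kb and 52.3% up to 100 kb. The median long loop passed over 2 other protein-coding start sites in either list. Most anchors of distinct-anchor long loops had a single such loop: 5458 of 6170 in the mock list (88.5%) and 1844 of 1952 in the PDS list (94.5%).

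Sequence motifs at the anchors were described in the same way. A predicted G4 motif (GGG or longer, 4 times on the same strand, 1 to 7 bases apart, both strands searched) was found in an anchor of 79.5% of long mock loops (78.2 to 80.8%) and 77.4% of long PDS loops (74.8 to 79.7%). Wide anchors hold more motifs by length alone. Within a fixed window of 2000 bp around the midpoint, 24.8% of the mock anchors of distinct-anchor long loops held the motif (23.8 to 25.9%), against 24.2% of anchors of shorter loops only (23.8 to 24.5%), and in the PDS list both shares were 23.6%. CTCF core matches pointed toward each other in 21 of 52 long mock loops with matches of 1 orientation at both anchors (40.4%, 28.2 to 53.9%) and in 13 of 23 long PDS loops (56.5%, 36.8 to 74.4%). They pointed away from each other in 5 and 3. At 100 to 200 kb the convergent shares were 47.1% of 70 (35.9 to 58.7%) and 63.6% of 22 (43.0 to 80.3%), and up to 100 kb 31.4% of 309 (26.5 to 36.8%) and 31.4% of 102 (23.2 to 40.9%). These differences were not tested. A sequence match does not show that a protein or a G4 structure was present.

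The promoters of FOXA1 and EPAS1 show such G4 motifs, given here as the 250 bases before the start site (RefSeq, GRCh38.p14) with the motif in capitals, as runs of G in FOXA1 and of C in EPAS1. Of 35116 promoters in that table, 23.5% held a motif in these 250 bases. For the listed promoters of genes with a long mock loop the share was 30.5% of 2116, and with a long PDS loop 30.9% of 657. For genes with 3 or more long mock loops it was 26.3% of 198. Promoters of genes with loops of any length were not set beside these, so no enrichment particular to long loops can be read from them. The promoters of CEBPB, NFKBIA, MIPOL1 and HNF4A held none in this window.
FOXA1, chr14:37595250-37595499, minus strand: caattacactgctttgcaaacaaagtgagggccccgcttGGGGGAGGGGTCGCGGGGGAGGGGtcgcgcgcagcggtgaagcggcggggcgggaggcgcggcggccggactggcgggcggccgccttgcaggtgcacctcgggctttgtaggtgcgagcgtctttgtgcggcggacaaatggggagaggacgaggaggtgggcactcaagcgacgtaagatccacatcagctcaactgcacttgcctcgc
EPAS1, chr2:46297157-46297406, plus strand: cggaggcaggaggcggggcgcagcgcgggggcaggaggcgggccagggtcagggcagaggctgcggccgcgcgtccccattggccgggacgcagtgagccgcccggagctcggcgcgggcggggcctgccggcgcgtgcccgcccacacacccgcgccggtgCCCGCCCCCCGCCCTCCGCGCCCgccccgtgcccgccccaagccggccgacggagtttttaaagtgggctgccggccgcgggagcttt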

How the data were processed

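POLR2A HiChIP-seq of HepG2 cells was available as 1 loop list per condition, in which the authors had combined 2 replicates and deposited whole-number PET counts per loop, not scaled. Per the submitters' processing notes, reads were handled with HiC-Pro 3.1.0 on GRCh38 (with its default settings, per the study's methods), and the loop caller and the anchor definition are not given in the sources used here. Both lists start at 3 PETs. Library depth was not used here.

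The distance is that between anchor midpoints. Loops were matched with bedtools 2.31.1 (at least 1 bp at both anchors). Genes came from GENCODE 44. Anchors were compared by 31-base sequences on either strand, read from GRCh38 with pysam 0.24.0. Intervals are 95% Wilson intervals (scipy 1.17.1), those of ratios from the PDS share of the combined count and those of medians from binomial ranks. Counting error is all that they hold, and loops share anchors and are not replicates. The steps were tested on simulated data. Named genes are those at the 15 long loops with most PETs and the 5 longest in each list, at loops with at least 5 PETs in both, the 10 genes with most long loops per list, and members of fixed gene lists; genes at a loop are those with a promoter in an anchor, otherwise overlapping, otherwise nearest. The members, lists and measures were chosen with earlier results of these data known. The 10% limit for sequence-sharing loops was chosen after seeing the data, since at least 1 common 31-base sequence was found in 52.0% of long mock loops.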

Additional observations from a re-analysis of the deposited data

How the results depend on the processing

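Of 91 alternative values of 14 results, 42 lay inside the counting interval of the main value and 49 outside it. All 16 PDS/mock ratios stayed below 1. With a limit of 100 kb, the loop ratio was 0.269, the PET ratio 0.262, the share of PDS loops in the mock list 15.8%, and the promoter shares 49.5% (mock) and 42.3% (PDS). With 500 kb, the ratios were 0.415 and 0.414, the shares in the other list 8.59% (mock) and 17.3% (PDS), the promoter shares 36.4% and 30.0%, and the 6 chromosomes held 59.6% of mock loops. With at least 4 PETs, the ratios were 0.279 and 0.281, the shares in the other list 12.1% and 31.4%, the promoter shares 48.0% and 34.1%, the median PDS distance 411 kb, the 6-chromosome PDS share 69.4%, and convergent CTCF 20% of 5 PDS loops. With at least 5 PETs, the ratios were 0.228 and 0.253, the shares in the other list 25.5% and 58.3%, the median distances 326 and 524 kb, the PDS promoter share 23.3%, the 6-chromosome PDS share 75%, and convergent CTCF 55.6% of 9 mock loops, with no PDS loop left for that value. Anchors extended by 5000 bp gave shares in the other list of 6.21% and 17.5%. Without the 6 chromosomes, the ratios were 0.264 and 0.254, the shares in the other list 2.19% and 8.31%, the promoter shares 50.8% and 45.2%, and the PDS share with a G4 motif 73.8%. Without the sequence-sharing loops, chosen after seeing the data, the PET ratio was 0.285, the shares in the other list 2.44% and 8.40%, and the median mock distance 311 kb. Promoters of 2500 bp gave 49.8% and 43.3%. G4 spacers up to 12 bases gave 89.9% and 87.6%, and the midpoint window 41.9% and 40.1%. The cause of these moves was not tested. No paired analysis was possible because each condition has 1 combined list, and leaving out a replicate could not be run for the same reason. Most long loops had 3 PETs, so absence from a list was not detectable as a difference at this depth.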
